A study of Mus musculus with 26 samples.

Results

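The origin recognition and licensing factors are 9 genes of the 55487 in the gene table: Orc1, Orc2, Orc3, Orc4, Orc5, Orc6, Cdc6, Cdt1 and Gmnn. They were chosen by symbol, as the subunits of the origin recognition complex, the loading factors of the replicative helicase and the inhibitor of loading, and the rule itself uses no measured value, although the set was proposed with earlier results of these data known. RNA and DNA of the same single blastomeres were read by scRR-seq, which separates the RNA of a lysed cell from its bead-bound chromatin. The blastomeres came from 2 mouse 8-cell embryos made by in vitro fertilization with oocytes and sperm of C57BL/6 mice, were picked by hand and received no treatment. Values were available for 3 cells of embryo 1 (cells 1, 6 and 7) and for 6 cells of embryo 2 (cells 2, 3, 5, 6, 7 and 8). The study's sample list gives G1 as the phase of the embryo 1 cells, while its text speaks of G1-like and G2/M-like cells, and it gives S as the phase of the embryo 2 cells. Each embryo is therefore 1 biological replicate and cell cycle phase cannot be told apart from embryo identity. No difference between the embryos was tested, and SDs describe the spread between cells.

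Before DNA can be copied, the origin recognition complex (ORC) binds chromatin, and together with CDC6 and CDT1 it loads the MCM helicase as an inactive double ring. This step is called licensing and belongs to the window from late mitosis through G1. Once S phase has begun, geminin (the product of Gmnn) binds CDT1 and prevents renewed loading, and CDT1 itself is destroyed in cycling cells, so that each origin is used at most once per cycle. Cleavage-stage blastomeres divide with little growth, on RNA and protein that come partly from the oocyte.

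All 9 genes were detected in every blastomere, taking TPM > 1 as detected. Single cells had 11058 to 13319 of the 55487 genes detected, and the share of genes detected in every cell was not counted. TPM is a level per transcript length and a share of the RNA of a cell. A lower value therefore cannot be told apart from more RNA of other genes. Gmnn stood at the top of the set in 8 of 9 cells and Orc1 at the bottom in 8 of 9. Orc5 was the 1 member whose cells did not overlap between the embryos: its level averaged 42.3 ± 19.7 TPM (SD, n = 6 cells) over embryo 2 and 14.98 ± 2.82 TPM (SD, n = 3 cells) over embryo 1, and 0.830% of all genes were likewise higher in embryo 2 with no overlap. The RNA of the other 8 genes overlapped between cells outside S phase and cells in S phase. The own loci of 6 of the 9 members were replicated in all 6 S-phase cells, beside 75.5% of genes.

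Promoter sequences are shown for 4 members, since Orc1, Cdc6 and Cdt1 are known targets of the E2F transcription factors and Orc5 was the member that differed between the embryos. Each runs from 250 bases before to 50 bases after a RefSeq transcription start (build GRCm38.p6), 5′ to 3′ on the strand of the gene. Capitals mark matches to the word TTGGCGC, to the word TTCCCGC, to the word TTGCCGC or to the word TTCGCGC, which are forms of the E2F core motif, searched on both strands.
Orc1 promoter, chr4:108579204-108579503, plus strand: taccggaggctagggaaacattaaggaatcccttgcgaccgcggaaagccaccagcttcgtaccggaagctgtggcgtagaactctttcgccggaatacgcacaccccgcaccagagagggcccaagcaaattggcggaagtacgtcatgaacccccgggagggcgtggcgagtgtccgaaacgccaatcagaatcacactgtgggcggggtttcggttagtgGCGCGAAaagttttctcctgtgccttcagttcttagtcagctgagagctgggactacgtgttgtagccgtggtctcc
Cdc6 promoter, chr11:98907901-98908200, plus strand: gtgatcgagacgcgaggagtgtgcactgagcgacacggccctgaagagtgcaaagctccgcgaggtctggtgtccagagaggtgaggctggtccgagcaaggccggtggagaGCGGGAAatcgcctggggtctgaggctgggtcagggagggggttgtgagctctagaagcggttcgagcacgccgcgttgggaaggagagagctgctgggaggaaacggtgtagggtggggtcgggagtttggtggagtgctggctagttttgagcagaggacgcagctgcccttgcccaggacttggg
Cdt1 promoter, chr8:122567765-122568064, plus strand: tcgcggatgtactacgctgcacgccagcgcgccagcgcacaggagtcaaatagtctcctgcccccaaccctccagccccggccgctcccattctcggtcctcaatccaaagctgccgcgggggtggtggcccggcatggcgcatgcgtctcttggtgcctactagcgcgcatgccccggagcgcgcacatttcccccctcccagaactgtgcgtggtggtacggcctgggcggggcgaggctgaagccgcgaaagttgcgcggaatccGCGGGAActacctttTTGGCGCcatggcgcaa
Orc5 promoter, chr5:22550289-22550588, minus strand: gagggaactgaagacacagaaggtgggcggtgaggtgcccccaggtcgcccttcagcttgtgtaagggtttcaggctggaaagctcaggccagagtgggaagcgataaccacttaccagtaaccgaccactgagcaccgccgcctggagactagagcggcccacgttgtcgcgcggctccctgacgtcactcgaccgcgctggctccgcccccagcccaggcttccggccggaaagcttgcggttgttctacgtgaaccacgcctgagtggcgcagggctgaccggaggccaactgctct
The match in Orc1 begins 27 bases before the start and that in Cdc6 138 bases before it. The Cdc6 window begins at chr11:98907901, after the first start of the gene in the GENCODE M21 annotation (98907801). Its match thus lies downstream of that first start, and the sequence before that start was not searched. Cdt1 has 2 matches, at the 19th and the 34th base of the transcribed side, and the Orc5 window has none. Of the 8 members with a promoter sequence, 5 held a match in at least 1 window (Orc1, Orc3, Orc4, Cdc6 and Cdt1), against 10.9% of all 27025 genes with a promoter sequence. Those genes were not limited to genes expressed here. The 8 members had 11 windows, and of all 32851 windows 9.57% held a match. Gmnn is named only. A match is a description of letters and not of binding.

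The DNA of the cells set the frame for the comparison. The percentage replication score, which is the percent of 40-kb bins called replicated among bins with a state, was 3.54%, 0.927% and 0.0039% in embryo 1 cells 1, 6 and 7. It was between 62.4% (cell 6) and 80.5% (cell 7) in embryo 2. The bins lie on 17 chromosomes, so the score and the states of genes leave out the rest of the genome. A 2-state call is uniform in G1 and in G2/M alike, so the state "unreplicated" in embryo 1 means no difference in copy number along the genome. Genes detected per cell ranged from 11058 to 13319, and mitochondrial RNA took 4.28% to 6.77% of the TPM in embryo 1 and 5.98% to 18.2% in embryo 2. Of the blastomere markers (Pou5f1, Tfap2c, Tead4, Dppa3, Klf17, Zp3, Gdf9 and Bmp15), all 8 passed a mean TPM of 1. Of these, Gdf9, an oocyte growth factor, was also higher in embryo 2 with no overlap (2.49 to 3.49 TPM over embryo 1, 4.25 to 13.98 TPM over embryo 2, log2 difference 1.10, pooled SD 0.43). Of 8 cumulus or granulosa markers, 5 were listed at 0 in every cell, and their summed level was 0 in embryo 1 and at most 6.13 TPM in embryo 2 (Ptx3 in cell 6). The 4 sperm markers summed to at most 1.62 TPM in any cell. The closing numbers of the sample titles run from 11 to 17 in 3 cells and from 20 to 25 in 6 cells. The study's sample list gives the protocol scRR3 for the former and scRR1 for the latter, and the study's text describes a 3′ bias of scRR1 in embryos.

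**Figure D1:**
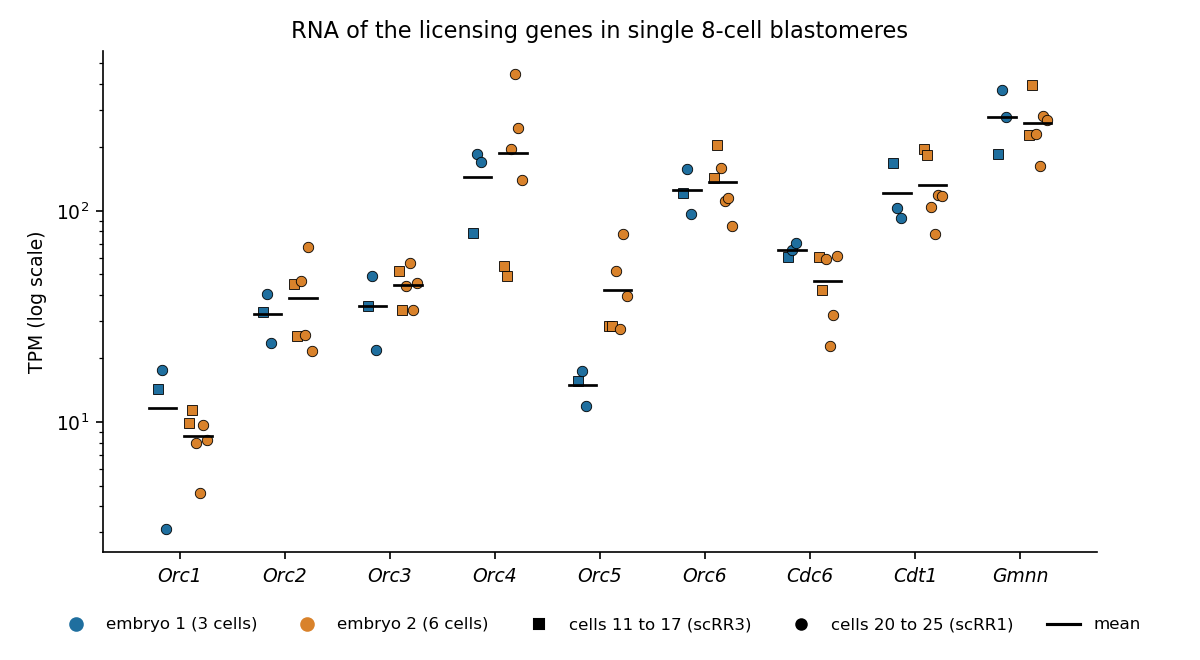
TPM of the 9 licensing genes (log axis) in each blastomere. Blue points are the 3 cells of embryo 1 and orange points the 6 cells of embryo 2; squares are cells numbered 11 to 17 (protocol scRR3), circles are cells numbered 20 to 25 (scRR1), and black lines are means. Orc5 is the gene whose embryo 2 cells all lie above its embryo 1 cells, while in Orc4 the squares lie below the circles and in Cdt1 above them.

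The 6 ORC subunits form 1 complex, but their RNAs were not present in equal amounts. Orc4 and Orc6 made up most of the summed ORC RNA, with medians over the 9 cells of 39.5% and 31.6% of the sum. These shares count all transcripts of a gene, and 87.4% of the Orc4 mean was assigned to noncoding transcripts. In coding transcripts alone, Orc4 was at 3.51 to 56.4 TPM and Orc6 at 41.9 to 120 TPM. Orc1 made up between 0.687% and 4.81% of it. ORC1 is the largest ORC subunit and is, in many cell types, the subunit whose amount changes over the cell cycle. Its mean of 9.66 TPM lay above 43.6% of protein-coding genes with a mean TPM > 1, whereas every other member lay above at least 71.4% of them. In order of the mean over 9 cells, with noncoding transcripts included, the members ran Gmnn (267 TPM), Orc4 (174), Orc6 (133), Cdt1 (129), Cdc6 (52.7), Orc3 (41.4), Orc2 (36.6), Orc5 (33.2) and Orc1 (9.66). Of the 8 steps in this order, that from Cdt1 down to Cdc6 held in 9 of 9 cells, Gmnn over Orc4 and Orc5 over Orc1 in 8 each, and Cdc6 over Orc3 in 7. The other neighbours changed places more often: Orc4 exceeded Orc6 in 6 cells, Orc3 exceeded Orc2 in 6, Orc6 exceeded Cdt1 in 5 and Orc2 exceeded Orc5 in 4.

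Orc1 (ENSMUSG00000028587.18, chr4:108579423-108614833, plus strand, mm10) stood at 14.4 TPM in cell 1, 17.6 in cell 6 and 3.10 in cell 7 of embryo 1. Over embryo 2 its lowest, median and highest levels were 4.62, 8.99 and 11.4 TPM. Cell 7 of embryo 1 was therefore below and the other 2 cells of that embryo above all cells in S phase. The difference of -0.17 in mean log2(TPM + 1), embryo 2 minus embryo 1, did not reach the pooled SD of single cells, 0.72. Without embryo 1 cell 7 it was -0.86 and the embryos did not overlap. Such a gap arises more easily with fewer cells, and the share of all genes with it was not counted there.

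Orc2 (ENSMUSG00000026037.14, chr1:58462771-58505109, minus strand) and Orc3 (ENSMUSG00000040044.11, chr4:34570796-34614944, minus strand) encode core subunits that hold the complex together. The cells of embryo 1 held 33.2, 40.3 and 23.7 TPM of Orc2, and those of embryo 2 held 21.8, 35.3 and 67.5 TPM (lowest, median, highest). For Orc3 the values were 35.3, 49.4 and 22.03 TPM, against 34.0, 44.8 and 56.7 TPM. Both ranges overlapped widely, and the log2 differences of 0.17 ± 0.56 and 0.36 ± 0.39 (pooled SD between cells) were within the spread.

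Orc5 (ENSMUSG00000029012.11, chr5:22486485-22550429, minus strand) encodes another of the ATPase-fold subunits of the core. Its level was 15.7 TPM in cell 1, 17.4 in cell 6 and 11.9 in cell 7 of embryo 1. The S-phase cells held 28.6 TPM in cell 2, 28.4 in cell 3, 52.2 in cell 5, 27.6 in cell 6, 77.6 in cell 7 and 39.7 in cell 8. Every S-phase cell thus lay above every cell of embryo 1. The mean was 2.83-fold higher in embryo 2, and the log2 difference of 1.35 compared with a pooled SD of 0.52. The background of 0.830% was counted over 13612 genes with a mean TPM > 1. A further 2.51% of them were lower in embryo 2 with no overlap, and no member was. The Orc5 difference was 0.82 within cells numbered 11 to 17, where embryo 1 has 1 cell, and 1.61 within cells numbered 20 to 25. It was between 1.15 and 1.46 with any cell left out. The mitochondrial share averaged 5.78% in embryo 1 and 11.7% in embryo 2, and with TPM rescaled to an equal total over nuclear protein-coding genes Orc5 still did not overlap. A single transcript, Orc5-201, carried 95.8% of the mean level. The processed pseudogene Gm15421 lies inside Orc5 on the same strand and was listed at 15.2 TPM in embryo 2 cell 7 and at 0 in the other 8 cells. Whether reads were shared between the pseudogene and Orc5, in that or any other cell, was not tested.

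Orc6 (ENSMUSG00000031697.12, chr8:85299632-85308278, plus strand) encodes the subunit least like the others. Embryo 1 cells held 122, 159 and 96.3 TPM and embryo 2 cells 85.1, 129.5 and 205.2 TPM (lowest, median, highest). The ranges overlapped, and the difference of 0.09 was inside the pooled SD of 0.42. Its sign differed between the number ranges (0.49 within cells 11 to 17 and -0.10 within cells 20 to 25). Of the members, 4 share bases with another protein-coding gene: Orc6 with Vps35 (22.6 to 99.1 TPM), Orc2 with Nif3l1 (15.7 to 80.2 TPM) and Orc4 with Acvr2a (at most 27.3 TPM) and Mbd5 (2.17 to 23.9 TPM), all on the opposite strand, and Cdt1 with Gm20388 (at most 11.97 TPM) on the same strand. Whether the quantification used strand is not given in the sources used here, so reads in the shared parts are uncertain.

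**Figure D2:**
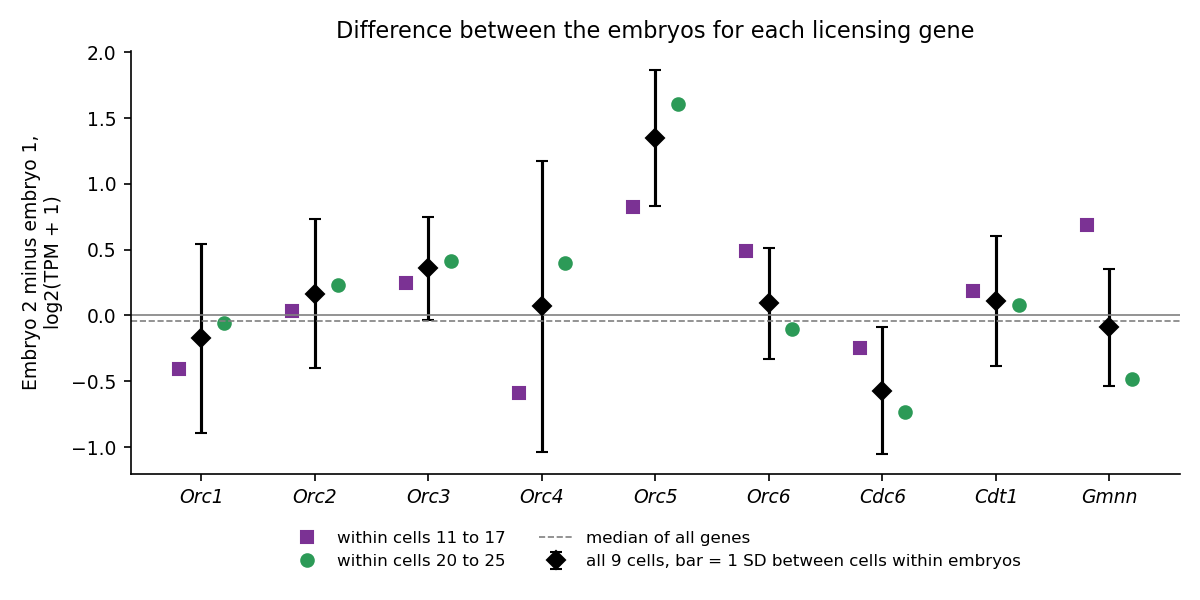
Difference between the embryos in mean log2(TPM + 1), embryo 2 minus embryo 1, for each licensing gene. Black diamonds use all 9 cells with a bar of 1 pooled SD between cells within embryos, purple squares use cells numbered 11 to 17, green circles use cells numbered 20 to 25, and the dashed line is the median of all genes (-0.04). Orc5 and Cdc6 are the genes whose bars do not reach 0, and Orc4, Orc6 and Gmnn have opposite signs in the 2 number ranges.

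Cdc6 is the ATPase that joins ORC at the origin and closes it around DNA. Its gene (ENSMUSG00000017499.15, chr11:98907801-98923940, plus strand) was expressed at 60.2, 65.6 and 70.5 TPM in the cells of embryo 1, a narrow range. Levels in embryo 2 were 60.6 TPM in cell 2, 42.2 in cell 3, 58.9 in cell 5, 23.03 in cell 6, 32.1 in cell 7 and 61.4 in cell 8. Cells 2, 5 and 8 thus lay near the level of embryo 1, and cells 3, 6 and 7 below it. The mean was 65.4 ± 5.16 TPM (SD, n = 3) in embryo 1 and 46.4 ± 16.4 TPM (SD, n = 6) in embryo 2. The log2 difference of -0.57 was larger than the pooled SD of 0.48, but the embryos overlapped, by 2 cells of embryo 2 that exceeded embryo 1 cell 1. Without that cell, no S-phase cell reached the embryo 1 cells, and 2 members did not overlap in place of 1. The share of all genes without overlap was not counted for these fewer cells, where gaps arise more easily. The difference was -0.25 within cells numbered 11 to 17 and -0.73 within cells numbered 20 to 25.

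Cdt1 (ENSMUSG00000006585.3, chr8:122568015-122573554, plus strand), whose product brings the MCM ring to ORC, stood at 168 TPM in cell 1, 103 in cell 6 and 92.1 in cell 7 of embryo 1. Among the S-phase cells it stood at 197 TPM in cell 2, 185 in cell 3, 104 in cell 5, 77.5 in cell 6, 118 in cell 7 and 117 in cell 8. The levels divided by number range and not by embryo. All 3 cells numbered 11 to 17 (168 to 197 TPM) lay above all 6 cells numbered 20 to 25 (77.5 to 118 TPM). Of all genes, 6.13% were higher in the cells numbered 11 to 17 with no overlap and 1.24% were lower. Of the 9 members 1 was higher (Cdt1) and 1 lower (Orc4). The difference between embryos was 0.11 with a pooled SD of 0.49. In protein-coding transcripts alone the number ranges overlapped. The short noncoding transcript Cdt1-202 held 33.2 to 53.6 TPM in the 3 cells numbered 11 to 17 and at most 21.15 TPM in the others. The coding transcript Cdt1-201 was at 109 to 148 TPM in the cells numbered 11 to 17 and at 66.4 to 117 TPM in the cells numbered 20 to 25.

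Gmnn (ENSMUSG00000006715.11, chr13:24751845-24761923, minus strand) reached 186, 376 and 277 TPM in the cells of embryo 1 and 163, 250.3 and 394 TPM (lowest, median, highest) across embryo 2. Cells inside and outside S phase covered the same range. The difference of -0.09 was smaller than the pooled SD of 0.45, and its sign was not shared by the number ranges (0.69 within cells 11 to 17 and -0.48 within cells 20 to 25). Nearly all Gmnn RNA (97.8% of the mean) was assigned to the coding transcript Gmnn-202. Of the other genes of the geminin family, which act in multiciliated cells, Mcidas was listed at no more than 0.44 TPM and Gmnc at 0 in all cells.

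The balance of the inhibitor to its target was also compared, as the ratio of Gmnn to Cdt1 TPM within a cell, which does not depend on the TPM total. Gmnn RNA exceeded Cdt1 RNA in every cell. The ratio was 1.11, 3.65 and 3.01 in embryo 1 cells 1, 6 and 7. It was 1.16, 2.13, 2.21, 2.10, 2.38 and 2.30 in embryo 2 cells 2, 3, 5, 6, 7 and 8. Of the 6 S-phase cells, 5 fell between 2.10 and 2.38, and embryo 1 cells lay on both sides of them. The log2 ratio differed by -0.20 between embryos (pooled SD 0.59), by 0.50 within cells numbered 11 to 17 and by -0.56 within cells numbered 20 to 25. The lowest ratios, in embryo 1 cell 1 and embryo 2 cell 2, were both in the lower number range.

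**Figure D3:**
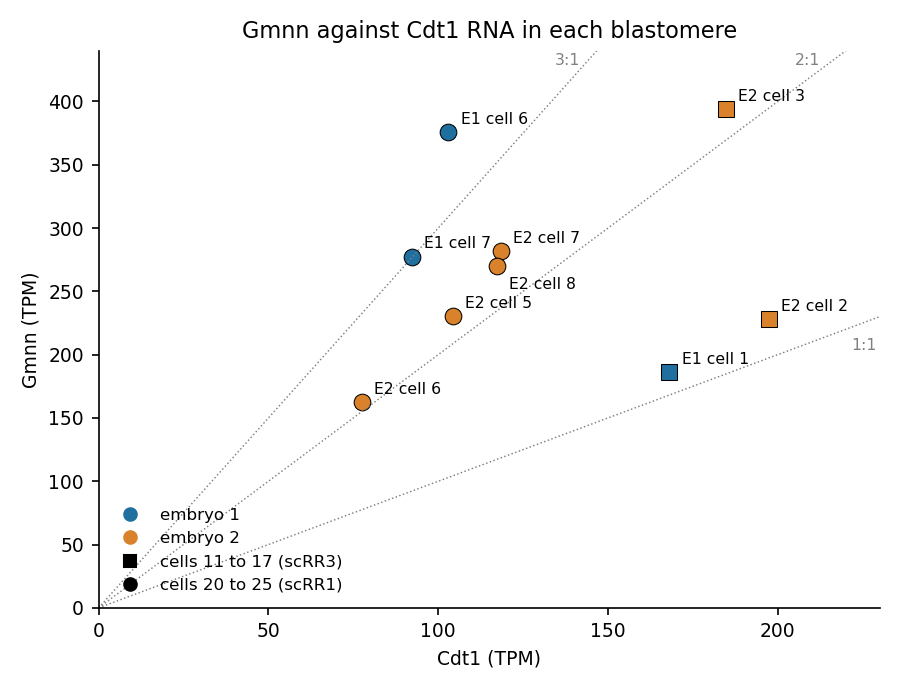
Gmnn against Cdt1 RNA (TPM) in each blastomere, with embryos by colour and number ranges by shape; dotted lines mark ratios of 1, 2 and 3. Squares (cells numbered 11 to 17) lie to the right of all circles, and 5 of 6 embryo 2 cells lie close to the line of ratio 2.

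Orc4 (ENSMUSG00000026761.12, chr2:48902824-48950277, minus strand), a further ATPase-fold subunit, varied most among the members, by 9.05-fold between the lowest and the highest cell. Its level was 78.6 TPM in cell 1, 185 in cell 6 and 171 in cell 7 of embryo 1. The S-phase cells held 54.9 TPM in cell 2, 49.4 in cell 3, 195 in cell 5, 447 in cell 6, 247 in cell 7 and 139 in cell 8. The cells numbered 11 to 17 (49.4 to 78.6 TPM) all lay below the cells numbered 20 to 25 (139 to 447 TPM), so that the mean was 3.79-fold higher in the latter. Between embryos the log2 difference was 0.07 with a pooled SD of 1.11, and it was -0.59 within cells numbered 11 to 17 and 0.40 within cells numbered 20 to 25. Across the 9 cells Orc4 and Cdt1 therefore ran against each other (Pearson's r of log2(TPM + 1) -0.94, n = 9 cells). Spearman's rho was -0.75. Within the 6 cells numbered 20 to 25 r was -0.68 and rho -0.20, so the ranks ran against each other little within that range.

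The transcript table showed that most of this RNA was not assigned to the Orc4 messenger. Noncoding transcripts of Orc4 held 87.4% of its mean TPM and between 46.4% and 98.8% in single cells. The largest part, 44.2%, was Orc4-206, an annotated processed transcript of 424 bases. It was listed at 0 in embryo 1 cells 1 and 6 and in embryo 2 cell 3, at 16.9 TPM in embryo 2 cell 2, at 53.5 to 87.5 TPM in 4 cells and at 398 TPM in embryo 2 cell 6. Orc4-213 and Orc4-212 held a further 14.7% and 14.5%. The full-length coding transcript Orc4-201 (4066 bases) was at 1.00 to 9.06 TPM. In all coding transcripts together, Orc4 held 42.1, 30.3 and 32.3 TPM in the embryo 1 cells, 56.4 TPM in embryo 2 cell 5 and 3.51 to 14.7 TPM in the other 5 S-phase cells. On that scale 5 of 6 S-phase cells lay below embryo 1, the log2 difference was -1.74 (pooled SD 1.13), and the number ranges overlapped.

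All 424 bases of Orc4-206 lie in the coding exons of Orc4-201, and all 1477 bases of Orc4-212 in its exons, so that single reads can fit more than 1 of them. These transcripts differ in how much of the exons they hold, and also in the splice junction after the exon base chr2:48912562. The 3 forms of this junction are shown, in the GENCODE M21 annotation, with the 14 bases before it in lower case and the first 16 bases of the next exon in capitals, 5′ to 3′ on the minus strand.
Orc4-201: tacacatgctattgATGCTTGCTTTAAATC
Orc4-206: tacacatgctattgCAGATCTGATGGAGGC
Orc4-212: tacacatgctattgATCTGATGGAGGCACA
The next exon begins at 48910294 in Orc4-201, at 48910245 in Orc4-206 and at 48910242 in Orc4-212, and it is 109, 60 and 57 bases long. Orc4-201 ends in an exon of 2776 bases, of which Orc4-206 holds 186 and Orc4-212 holds 284. TPM counts a transcript per length, so a given amount of sequence weighs more when it is assigned to a transcript of 424 bases. When each transcript's TPM was multiplied by its length, the spread of Orc4 over the 9 cells fell to 4.64-fold, the difference between embryos was 0.00 (pooled SD 0.82), and the 3 cells numbered 11 to 17 remained below the others. The part of the protocol in this split was not tested.

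Orc6 and Orc3 were also divided among transcripts. Orc6-204, annotated as a target of nonsense-mediated decay, was at 0.39 TPM in embryo 2 cell 7 and at 112 TPM in embryo 2 cell 5, and held 31.6% of the Orc6 mean. Orc6 coding transcripts together ranged from 41.9 to 120 TPM. Coding transcripts held 48.2% of the Orc3 mean, with the processed transcript Orc3-205 at 27.9%. In contrast, Orc2, Orc5, Cdc6 and Gmnn were at least 95.8% coding by their mean TPM. In 8 of 9 cells all Orc1 TPM was coding, but in embryo 2 cell 5 the short transcript Orc1-204 held 58.4% of it.

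**Figure D4:**
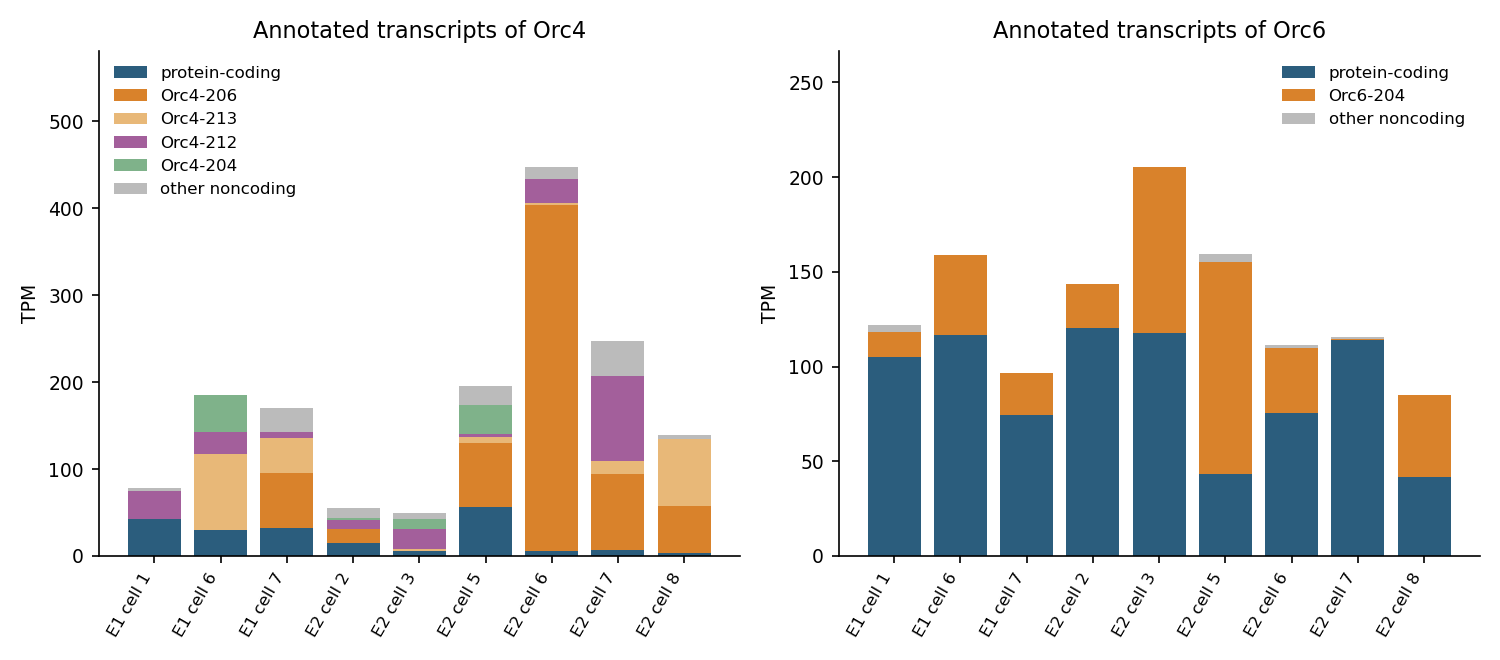
TPM of annotated transcripts of Orc4 (left) and Orc6 (right) in each blastomere, stacked, with all protein-coding transcripts in dark blue. Noncoding forms make up most of Orc4 in 8 of 9 cells, above all Orc4-206 in embryo 2 cell 6, and the decay-annotated Orc6-204 exceeds coding Orc6 in embryo 2 cells 5 and 8.

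Summed over the 6 subunits, ORC RNA amounted to 299, 469 and 328 TPM in the embryo 1 cells and 334, 354, 505, 673, 552 and 340 TPM in embryo 2 cells 2, 3, 5, 6, 7 and 8. The ranges overlapped, and the log2 difference of 0.30 was smaller than the pooled SD of 0.40. It was 0.32 without Orc4 and -0.0042 in coding transcripts alone. Over the 9 members the median difference between embryos was 0.09, beside -0.04 over all 13612 genes, with 6 members higher and 3 lower in embryo 2. Orc5 and Cdc6 differed by more than the pooled SD between cells, which makes 22.2% of the set, beside 23.4% of all genes.

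The replication states of embryo 2 then showed in which cells the licensing genes themselves were copied. Each gene lies in 1 or 2 bins of 40 kb. All 9 were called unreplicated in all 3 cells of embryo 1. The replication score there was at most 3.54%, so almost any locus is called so and this does not show when the genes are copied. In embryo 2, Orc1, Orc3, Orc4, Orc6, Cdc6 and Cdt1 were replicated in all 6 cells, beside 75.5% of the 11091 genes with a mean TPM > 1 and a state in the 6 cells. Orc2, Orc5 and Gmnn were replicated in 5 cells and unreplicated in cell 6, which had the lowest replication score. In that cell 18.3% of genes were unreplicated, and 14.6% of genes were unreplicated there and replicated in the other 5 cells. The unreplicated run of bins around each gene was 0.4 Mb long for Orc2 (chr1:58440001-58840000), 6.8 Mb for Orc5 (chr5:21000001-27800000) and 0.6 Mb for Gmnn (chr13:24400001-25000000), and in the other 5 cells 96.8% to 100% of the states in these runs were replicated. The counts were equal when the state was read from the bin of the gene start.

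The RNA of these 3 genes in cell 6 could be set beside the cells that had copied them. Orc2 was at 25.8 TPM in cell 6 and between 21.8 and 67.5 TPM in the other 5 cells. Orc5 was at 27.6 TPM and between 28.4 and 77.6 TPM in the others. Gmnn was at 163 TPM and between 228 and 394 TPM in the others. Orc2 thus lay inside the range, and Orc5 and Gmnn below it. Orc1, Cdc6 and Cdt1, whose genes were replicated in cell 6, were also lowest there among the S-phase cells. In all, 5 of 9 members had their lowest embryo 2 value in cell 6, beside 21.3% of all genes. After rescaling over nuclear protein-coding genes this held for Orc1, Cdc6, Cdt1 and Gmnn and no longer for Orc5, and on the deposited scale Orc3 and Orc4 were highest in cell 6. In coding transcripts alone, Orc1 was at 2.38 TPM in cell 5 and 4.62 TPM in cell 6, so cell 6 was not its lowest on that scale. Orc3 and Orc4 were not highest in cell 6 on that scale either. Coding Orc3 was at 19.6 TPM in cell 6 and 38.9 TPM in cell 8. Coding Orc4 was at 5.51 TPM in cell 6 and 56.4 TPM in cell 5. Cell 6 also had the fewest genes detected (11058) and the most bins without data (1264), and the part of these in its RNA values was not tested.

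**Figure D5:**
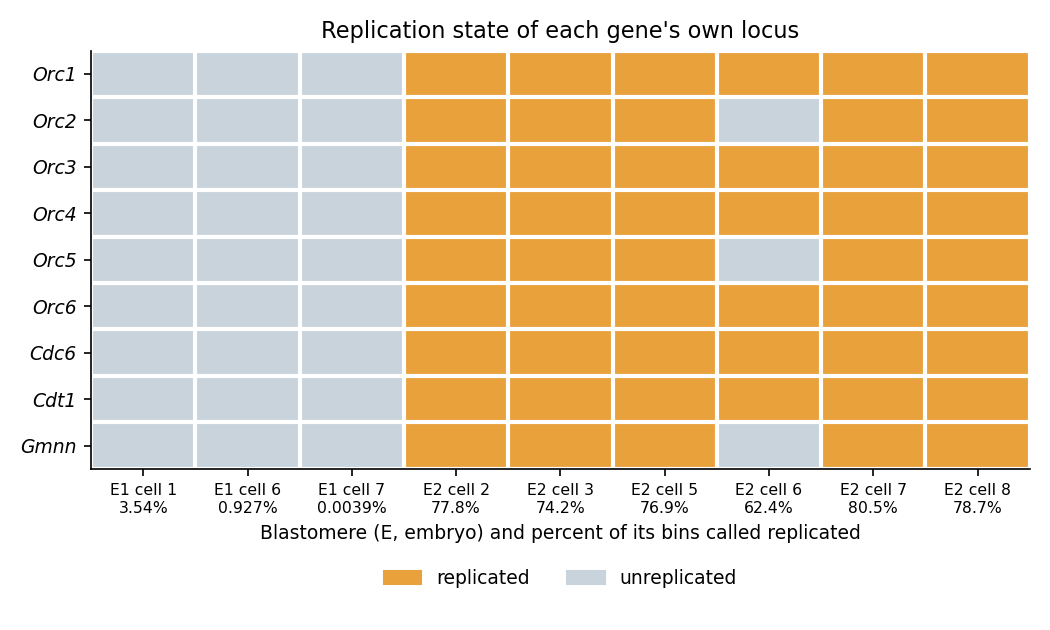
Replication state of the own locus of each licensing gene (rows) in each blastomere (columns, with the percent of bins replicated under each). Orange marks replicated and grey unreplicated loci. The 3 grey fields in embryo 2 are Orc2, Orc5 and Gmnn in cell 6.

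Along the replication score of the 6 S-phase cells, from cell 6 (62.4%) through cells 3, 5, 2 and 8 to cell 7 (80.5%), the members followed no common order. Orc1 had the highest Pearson's r, 0.80 (n = 6 cells of 1 embryo), with Spearman's rho 0.26, and r fell to -0.43 without cell 6. Orc5 had r 0.59 and rho 0.83, and r 0.71 without cell 6. Cdc6, Cdt1 and Gmnn had r of 0.69, 0.52 and 0.58 and rho of 0.43, 0.37 and 0.37, and their r became -0.21, -0.50 and -0.53 without cell 6. Orc6 had r 0.01 and rho -0.31, and r -0.80 without cell 6. Of the 6 scores, 5 lay between 74.2% and 80.5%, so these values describe few points.

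The partners of licensing were read from lists of related genes. The 6 genes of the MCM helicase, the ring that ORC, CDC6 and CDT1 load, all had a mean TPM > 1, and none had embryos without overlap. The most abundant were Mcm3 (97.0 to 258 TPM over embryo 1, 97.4 to 269 TPM over embryo 2) and Mcm6 (105 to 189 and 81.3 to 146 TPM). Mcm2 and Mcm5 were higher in cells numbered 11 to 17 with no overlap, beside 6.13% of all genes. The same held for 2 of 8 ORC and licensing partners, 2 of 15 licensing control genes and 0 of 8 E2F factors. The median difference between embryos over the 6 genes was -0.16. Of 8 ORC and licensing partners none differed between embryos without overlap, and the median was 0.10. Among them Hmgb1, a chromatin protein, ranged from 161 to 369 TPM over embryo 1 and from 102 to 388 TPM over embryo 2, and Rif1, which restrains origin firing, was at 57.7 to 137 and 91.2 to 259 TPM.

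Of 15 genes that control licensing through kinases and ubiquitin ligases, none was without overlap between embryos, and the median difference was 0.02. Cdk1, the main mitotic kinase, ranged from 241 to 540 TPM over embryo 1 and from 268 to 882 TPM over embryo 2, and Cdc20, an activator of the anaphase-promoting complex, was at 295 to 492 and 132 to 435 TPM. Of 8 E2F factors, 6 had a mean TPM > 1 and none was without overlap. E2f4 ranged from 15.8 to 87.3 TPM over embryo 1 and from 19.95 to 55.6 TPM over embryo 2, and E2f6 was at 9.83 to 29.9 and 9.28 to 24.4 TPM. Both belong to the E2F members known as repressors, and E2f1, an activator, had a mean of 7.90 TPM.

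The genes most like Cdt1 across the 9 cells, among 8744 genes with a mean TPM > 5, were Hyou1, Ptbp1 and Tmem8, with Pearson's r of 0.95 each. All 3 were, like Cdt1, higher in the cells numbered 11 to 17: Ptbp1, a splicing regulator, was at 497 to 580 TPM there and at 125 to 227 TPM in cells numbered 20 to 25. For Gmnn they were Sept2 (ENSMUSG00000116048.1, 1 of the gene models with this symbol), Gm48143 and Kin, with r of 0.85, 0.83 and 0.82. This Sept2 model was at 26.9 TPM in embryo 2 cell 6, where Gmnn was lowest, and at 30.25 to 81.6 TPM in the other cells. These 9 cells share 2 embryos and 2 protocols, and the genes were picked as the highest of many.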

How the data were processed

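Members and gene lists were chosen with earlier results of these data known. RNA levels were deposited as TPM of 55487 genes and 142699 transcripts, from about equal reads per cell aligned to mm10 with Hisat and quantified by RSEM (GENCODE vM25) in ramdaq. Replication states were deposited as a score per 40-kb bin (1 replicated, -1 unreplicated, 0 no data), from bwa alignments (BWA 0.7.17-r1188 per the submitters' processing notes) called by the 2-state model of AneuFinder. Neither keeps read depth, so no counting interval was computed. The RNA headers carry the same embryo and cell throughout, and columns were assigned by closing number. In every table, 14 columns without a label of this series were not used, and 4 labelled cells were not analysed here.

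Genes were placed by GENCODE M21 (GRCm38, the build of mm10). Differences are of mean log2(TPM + 1), embryo 2 minus embryo 1, beside the pooled SD between cells, and understate changes of genes with low TPM. The background was nuclear genes with a mean TPM > 1. A gene's state was the sign of the mean over its bins. Cells of 1 embryo are not replicates, so no p-value was computed. Named genes were all members, the 2 most abundant genes of each list, any list gene without overlap between the embryos, and the 3 genes most like Cdt1 and Gmnn by Pearson's r. Scripts (Python 3.11.15, numpy 2.4.6, pandas 2.3.3) were tested on simulated differences. Alternatives were the pseudocount, the TPM total, coding transcripts, medians, number ranges and leaving out each cell. A length-weighted sum and the ORC sum without Orc4 were chosen after seeing the data.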

Additional observations from a re-analysis of the deposited data

Results flagged for a closer look

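The ratio of Gmnn to Cdt1 TPM in embryo 2 cell 2 was 1.16, far from the other 5 S-phase cells (2.10 to 2.38), with a gap of 0.77 of the range above Dixon's critical value for 6 samples. The replicated share of embryo 2 cell 6 was 62.4%, and its gap to the next cell was 0.65 of the range, also above it. These were 2 of 12 measures examined (9 members, the ORC sum, the ratio and the replicated share), and chance flags about 1 in 20 groups of independent samples, which cells of 1 embryo are not. No single member's TPM passed the limit in embryo 2, and the largest gap among them was that of Orc5 (0.51 of the range, cell 7).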

How the results depend on the processing

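No paired analysis was possible because no comparison between groups comes from a test and the shared cell numbers only name cells. The pooled SD between cells was the yardstick. Of 233 values, some of which only repeat the main count beside another background, 225 stayed within it (counts within 1.5 times) and 8 moved. Leaving out 1 cell seldom moves a mean by the SD of single cells, so staying within it is a weak check. None of the differences larger than their SD turned sign, which concerns Orc5 and Cdc6 alone. Smaller differences did turn sign, such as that of Orc1 (-0.86 to 0.24). Taking TPM > 5 as detected, embryo 2 cells had 0.17 more members on average than embryo 1 cells, from a difference of 0. The log2 ratio of Gmnn to Cdt1 differed by 0.50 within cells numbered 11 to 17. The median protocol difference over the 9 members (cells numbered 11 to 17 minus 20 to 25), 0.01 over both embryos, was 0.31 in embryo 2 alone. With each cell left out, 1 to 2 members had no overlap between embryos: Orc5 each time, with Cdc6 when embryo 1 cell 1 was left out and Orc1 when embryo 1 cell 7 was. The share of all genes without overlap was counted with all 9 cells only. Fewer cells make a gap easier, so these counts have no background. The single members that moved were Orc4 in coding transcripts (-1.74), and Orc5 (0.82) and Gmnn (0.69) within cells numbered 11 to 17. The median embryo difference ranged from -0.09 to 0.27 and that of the ORC sum from -0.0042 to 0.50. With 1 embryo per phase and no read depth, neither the error between embryos nor counting error is known. The protocol difference without embryo 1 cell 1 could not be computed, since embryo 1 then has no cell in the lower number range.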
